A study of Mus musculus with 14 samples.

Results

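The 81 genes described here encode the proteins of the cytosolic ribosome in the mouse. They were taken from the 21755 protein-coding genes of the GENCODE M21 annotation by their symbols: Rpl or Rps followed by a number, with an optional letter or l suffix, together with *Rpsa*, *Rplp0*, *Rplp1* and *Rplp2*. The kinase genes beginning with Rps6k and pseudogenes were left out. Of the 81 genes, 50 encode proteins of the large subunit and 31 proteins of the small subunit, and they lie on 19 chromosomes. The symbol rule itself used no measured value, but the genes were chosen with earlier results of these data known. For each gene the DMC1 peaks with a center within 1 kb of any annotated transcript start were taken, and where a gene had several, the strongest was used.

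DMC1 ChIP-SSDS maps meiotic DNA double-strand breaks (DSBs) through their single-stranded ends, to which the recombinase DMC1 binds. It was done on whole testis of adult mice of 2 genotypes with 2 replicates each. *Hells* CTRL mice were Hellsfl/Δ, without Cre (5 weeks, 2 testes per replicate). *Hells* cKO mice were Hellsfl/Δ;Stra8-iCre (9 weeks, 3 testes per replicate), in which a transgene expresses Cre from the *Stra8* promoter in male germ cells as they enter meiosis. Mice of both genotypes thus carried a floxed and a deleted *Hells* allele, and the methods give the PRDM9 Dom2 variant for both. Age and genotype cannot be told apart here, and according to the study some *Hells* cKO spermatocytes still held HELLS protein. The replicates of each genotype were merged into 1 peak list before deposit, so no value below has a replicate error and no test between genotypes was possible. The *Hells* CTRL list held 11133 peaks with a median strength of 63 and the *Hells* cKO list 17117 peaks with a median strength of 31. Strength is the authors' score of a peak. It was not normalized between genotypes, and the sequencing depth behind it is unknown, so a peak is placed below by its percentile in its own list. The lists hold no expression values, so the tissue label could not be checked with marker genes.

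Ribosomal protein genes are transcribed in nearly every cell, because all cells need equal amounts of the many proteins that build the small and large ribosomal subunits. Their promoters are usually CpG islands without a TATA box, and transcription starts within a run of pyrimidines, which gives the mRNAs the 5′ terminal oligopyrimidine (TOP) tract through which their translation is controlled. In mouse spermatocytes PRDM9 binds DNA by its zinc fingers, methylates histone H3 on nearby nucleosomes and so places DSBs mostly away from promoters. HELLS is a chromatin remodeler. Where PRDM9 does not act, DSBs are known to form at other sites with histone H3 lysine-4 methylation, promoters among them.

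In *Hells* cKO testes, 63 of the 81 genes had a DMC1 peak at a start (77.8%, exact 95% interval 67.2-86.3%), against 45.6% of all protein-coding genes (9925 of 21755). In *Hells* CTRL testes 1 gene had a peak, *Rpl39* (1.23%, exact 95% interval 0.0313-6.69%), against 2.7% of all protein-coding genes (587). The intervals are Clopper-Pearson intervals and cover counting error only. Ribosomal protein genes had a median of 6 annotated starts per gene, against 3 over all protein-coding genes. A peak at any start counted, so more starts gave more places for a peak. The part of this in the shares was not tested, and the CpG weighting further below does not adjust for it. The 63 genes held 65 different *Hells* cKO peaks, since *Rps14* and *Rps24* each had a second peak at another start and no peak was shared between genes of the family.

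The promoters of the 3 genes with the strongest *Hells* cKO peaks are printed next to those of 3 genes without a peak, as examples of promoters of both kinds. Of the 3 genes without a peak, *Rpsa* had the most CpG dinucleotides of its kind within 250 bp of the principal start. Other genes without a peak had more than *Rps15* and *Rpl14*, as counts given further below show. Each window runs from 150 bases before to 15 bases from the 5′-most annotated start, on the strand of the gene, in the GRCm38.p6 assembly of RefSeq. Capitals mark CpG dinucleotides. The genes with a peak come first:
Rps13, chr7:116334181-116334345, minus strand: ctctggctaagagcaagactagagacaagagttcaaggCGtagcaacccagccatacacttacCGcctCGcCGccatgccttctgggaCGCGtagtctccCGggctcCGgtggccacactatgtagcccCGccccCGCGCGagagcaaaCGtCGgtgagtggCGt
Rpl7, chr1:16104648-16104812, minus strand: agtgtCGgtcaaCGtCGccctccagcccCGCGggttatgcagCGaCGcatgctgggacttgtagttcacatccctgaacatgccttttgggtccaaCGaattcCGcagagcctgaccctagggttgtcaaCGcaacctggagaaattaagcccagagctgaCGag
Rpl34, chr3:130730384-130730548, minus strand: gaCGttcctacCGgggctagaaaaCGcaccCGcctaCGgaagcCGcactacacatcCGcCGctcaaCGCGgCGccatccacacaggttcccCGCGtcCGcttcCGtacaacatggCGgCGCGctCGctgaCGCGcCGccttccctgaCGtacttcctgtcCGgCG
The genes without a *Hells* cKO peak are the following:
Rpsa, chr9:120127539-120127703, plus strand: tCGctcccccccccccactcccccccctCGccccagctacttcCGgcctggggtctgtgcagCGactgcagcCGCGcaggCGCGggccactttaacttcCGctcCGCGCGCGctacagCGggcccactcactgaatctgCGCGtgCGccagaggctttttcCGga
Rps15, chr10:80292303-80292467, plus strand: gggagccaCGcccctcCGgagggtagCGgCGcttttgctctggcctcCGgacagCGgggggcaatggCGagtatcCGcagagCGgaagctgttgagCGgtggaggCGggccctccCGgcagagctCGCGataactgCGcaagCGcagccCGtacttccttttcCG
Rpl14, chr9:120571294-120571458, plus strand: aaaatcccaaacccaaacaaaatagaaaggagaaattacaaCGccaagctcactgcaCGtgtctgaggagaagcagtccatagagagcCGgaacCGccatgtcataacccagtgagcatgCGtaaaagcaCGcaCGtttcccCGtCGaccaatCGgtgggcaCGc
These windows held 15, 11 and 25 CpG dinucleotides at *Rps13*, *Rpl7* and *Rpl34*, and 18, 18 and 11 at *Rpsa*, *Rps15* and *Rpl14*. The genes with a peak were picked for strength and those without are only a few of their kind. These counts are therefore examples and say nothing about the family as a whole.

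The run of pyrimidines at the main start differed among the same 6 genes as well. Below are 30 bases around the principal start, the start of a coding transcript with the most transcript starts of the gene within 50 bp, with the longest uninterrupted run of C and T in capitals:
Rps13 principal start, chr7:116334119-116334148, minus strand: ttcctacctcgTTCTCTCTTTgctgccaga
Rpl7 principal start, chr1:16104648-16104677, minus strand: CCTggagaaattaagcccagagctgacgag
Rpl34 principal start, chr3:130730323-130730352, minus strand: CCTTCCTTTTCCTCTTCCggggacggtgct
Rpsa principal start, chr9:120127829-120127858, plus strand: tggtgagtctcacgtggagCCCTCggcgtc
Rps15 principal start, chr10:80292438-80292467, plus strand: gcgcaagcgcagcccgtaCTTCCTTTTCCg
Rpl14 principal start, chr9:120571429-120571458, plus strand: gTTTCCCCgtcgaccaatcggtgggcacgc
The run was 10, 3 and 18 bases long in the genes with a strong peak and 5, 11 and 7 bases long in the genes without one. A run of 10 or more bases thus occurred in genes of both kinds. These lengths were read at a single annotated start per gene and depend on which start was taken. At *Rpsa*, for example, the window printed above for the 5′-most start holds a longer run at that start.

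The strongest *Hells* cKO peak of the family lay at *Rps13*, which encodes a small-subunit protein. It covered chr7:116333109-116335418 with a strength of 233, at percentile 98.0 of the list, and its center was 69 bp from the nearest *Rps13* start. *Rpl7*, a large-subunit gene, came next with a strength of 220 (percentile 97.7) at chr1:16103669-16106728. Its peak was the widest of the family (3060 bp) and its center was between genes, 537 bp upstream of the principal start. *Rpl34* had a peak of strength 209 (percentile 97.3) at chr3:130728989-130731296 in an exon of the gene.

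The list strength at the 90th percentile was 120, and 10 ribosomal protein genes reached it (12.3%, exact 95% interval 6.08-21.5%), against 8.11% of all protein-coding genes (1764). These shares include genes without a peak. Among genes with a peak, 84.1% of ribosomal protein genes and 82.2% of all protein-coding genes lay at or below percentile 90. The top group was thus not larger in the family once only genes with a peak were counted. After the first 3 genes came *Rps27a* with 176, whose product is made as a fusion with ubiquitin, and *Rps6* with 150, whose product is the classical substrate of S6 kinases. *Rps29* had 149, *Rpl35a* 133 and *Rpl35* 129. *Rpl36al* and *Rpl37* both had 121. The top group held 6 large-subunit and 4 small-subunit genes, so neither subunit was missing from it.

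Over the 63 genes the strengths ran from 9 to 233, with a median of 56 and quartiles of 30.5 and 93. Their median percentile was 72.1 (quartiles 49.5 and 84.8), against 67.1 (quartiles 42.4 and 85.7) over the 9925 protein-coding genes with a peak, whose median strength was 48. The interquartile ranges overlapped over most of their length. At or below percentile 75 lay 58.7% of the 63 genes, against 59.9% of all protein-coding genes with a peak. At or below percentile 50 lay 25.4% and 31.4%. The shares above percentile 75 were thus close to each other. At or above the upper quartile of the *Hells* cKO list lay the peaks of 26 ribosomal protein genes. Besides the top 10 these included *Rpl24*, *Rpl39*, *Rps27*, *Rpl5*, *Rpl15*, *Rpl30*, *Rps14*, *Rpl10l*, *Rpl31*, *Rpl37a*, *Rpl36a*, *Rps20*, *Rpl27a*, *Rps7* and *Rps15a*, with strengths from 117 down to 63.

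A further 21 genes lay between the median of the list and its upper quartile, from *Rpl32* with 61 to *Rpl19* and *Rplp2* with 31. This group also included *Rpl13a*, *Rpl28*, *Rpl13*, *Rpl9*, *Rps24*, *Rps23*, *Rpl39l*, *Rps2*, *Rpl21*, *Rpl17*, *Rplp1*, *Rps16*, *Rpl4*, *Rps27l*, *Rps9* and *Rpl10*. Between the lower quartile and the median lay 9 genes with strengths of 30 to 20, *Rpl8*, *Rps12*, *Rpl10a*, *Rpl23*, *Rps25*, *Rps21*, *Rpl36*, *Rps28* and *Rpl11*. Below the lower quartile lay 7 genes. *Rpl27* had the weakest peak of the family, with a strength of 9 (percentile 1.41). *Rpl22*, *Rpl3* and *Rps4x* followed with 14 each, and *Rplp0*, *Rps19* and *Rps3* with 17 each.

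**Figure D1:**
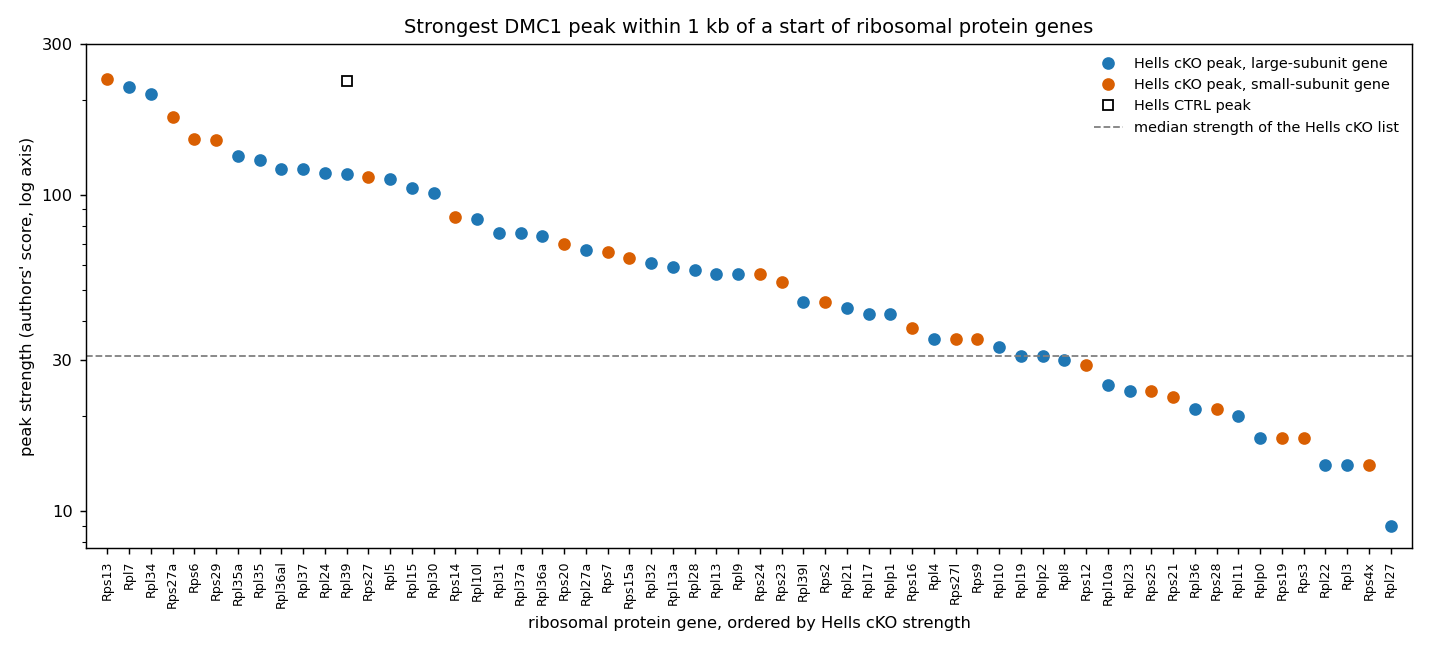
Strength of the strongest DMC1 peak within 1 kb of a start (vertical log axis, authors' score) for 60 of the 63 ribosomal protein genes with a Hells cKO peak, ordered by strength. Filled points are Hells cKO peaks of large-subunit (blue) and small-subunit (orange) genes, the open square is the only Hells CTRL peak, at Rpl39, and the dashed line is the median strength of the Hells cKO list (31). Points run from 233 at Rps13 to 9 at Rpl27, 44 of them at or above the line. Each value comes from 1 merged list and has no replicate error.

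By subunit, 38 of 50 large-subunit genes (76.0%, exact 95% interval 61.8-86.9%) and 25 of 31 small-subunit genes (80.6%, exact 95% interval 62.5-92.5%) had a *Hells* cKO peak. The intervals overlapped. Median strength was 57 for the large and 46 for the small subunit. The genes of the ribosomal stalk, which recruits translation factors to the large subunit, had peaks of modest strength: 42 at *Rplp1*, 31 at *Rplp2* and 17 at *Rplp0*. *Rpsa*, which encodes a small-subunit protein also known as a laminin receptor, had none.

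Of the ribosomal protein genes mutated in Diamond-Blackfan anemia, an inherited failure of red cell production, 4 well-known ones are given as examples, not as a tally of the disease genes. *Rpl5* had a peak of strength 112 (percentile 88.7) and *Rpl11* one of strength 20 (percentile 30.1), although both products join the same complex that restrains MDM2. *Rps19* had a strength of 17 (percentile 22.5) and *Rps26* had no peak within reach.

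All 4 genes on chromosome X had a *Hells* cKO peak, with strengths of 116 at *Rpl39*, 74 at *Rpl36a*, 33 at *Rpl10* and 14 at *Rps4x*. With so few genes the Clopper-Pearson interval of this share was wide, 39.8-100%. The share over all protein-coding genes of chromosome X is not given here, so the count does not show a trait of these genes. X-linked genes are silenced with their chromosome in male meiosis, and autosomal copies are known for several of these 4 genes. Whether silencing bears on the peaks was not tested. The 3 copies in the family also had peaks, *Rpl36al* with 121, *Rpl10l* with 84 and *Rpl39l* with 46. *Rpl10l*, a testis-expressed retrogene, thus ranked above its X-linked parent *Rpl10*, and *Rpl39l* below *Rpl39*. The *Rpl36al* peak was nearer to a start of *Mgat2*, the divergent neighbour, than to one of *Rpl36al*. The same was true of *Rpl4* (strength 35) and its neighbour *Zwilch*, and of no other of the 63 genes when only protein-coding neighbours were counted. A start of a small nucleolar RNA gene was nearer at some others, among them *Snora78* at *Rps2* and *Snord58b* at *Rpl17*.

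*Rpl39* was the only ribosomal protein gene with a peak at a start in both lists. In *Hells* CTRL testes the peak covered chrX:37083053-37085428 with a strength of 229, at percentile 83.1 of that list. Its center lay in an intron, 1161 bp downstream of the principal start and 915 bp from the nearest annotated start, close to the 1 kb limit. In *Hells* cKO testes the peak covered chrX:37083699-37086162 with a strength of 116, at percentile 89.3 of its own list, and its center lay in an exon 225 bp from the nearest start. The intervals overlapped by 1730 bp and the centers were 690 bp apart. The 100 bases around each center are shown on the plus strand because they differ in CpG content, with CpG in capitals (the gene itself is on the minus strand):
Rpl39 Hells CTRL peak center, chrX:37084191-37084290, plus strand: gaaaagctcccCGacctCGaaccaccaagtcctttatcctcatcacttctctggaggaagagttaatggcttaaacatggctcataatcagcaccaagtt
Rpl39 Hells cKO peak center, chrX:37084881-37084980, plus strand: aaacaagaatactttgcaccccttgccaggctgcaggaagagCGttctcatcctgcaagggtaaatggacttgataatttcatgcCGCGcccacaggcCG
Within 250 bp on either side, the *Hells* CTRL center had 10 CpG dinucleotides and the *Hells* cKO center 26.

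Away from the starts, the nearest *Hells* CTRL peak was a median of 47830 bp from a start over the 81 genes. This distance was 66110 bp over all protein-coding genes and 47400 bp over those with a *Hells* cKO peak. After *Rpl39*, the closest were *Rpl4* (1384 bp), *Rps29* (2669 bp), *Rpl3l* (2823 bp) and *Rpl8* (2849 bp).

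The remaining 18 genes had no *Hells* cKO peak within 1 kb, among them *Rpl3l*, *Rpl6*, *Rpl7a*, *Rpl12*, *Rpl14*, *Rpl18*, *Rpl23a*, *Rpl26*, *Rpl29*, *Rpl38*, *Rpl41*, *Rps10*, *Rps15*, *Rps18*, *Rps26* and *Rpsa*. A list of called peaks does not show whether DMC1 signal too weak to be called was present at them. The distance to the nearest *Hells* cKO peak ranged from 1130 bp at *Rps18* to 703948 bp at *Rpl14*. *Rpl3* lay just inside the limit, with a peak center at 829 bp (strength 14). Just outside were *Rps18* at 1130 bp (strength 15), *Rpl38* at 1500 bp (strength 17) and *Rpl23a* at 3591 bp (strength 116).

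The CpG content of the promoter did not separate the 18 genes from the rest of the family. Genes with a peak had a median of 41 CpG dinucleotides within 250 bp of the principal start (8 to 65) and genes without a peak a median of 42 (3 to 60). Over all protein-coding genes, those with a *Hells* cKO peak had a median of 40 and those without a median of 9. *Rpl3l*, the muscle-expressed relative of *Rpl3*, had 3 CpG dinucleotides, the fewest of the family, and no peak. *Rpsa* had 60, the second highest count, and no peak either, while *Rpl36al* had the most, 65. Also without a peak were *Rpl7a* and *Rps10* with 57 each, *Rps15* with 46 and *Rpl14* with 45. *Rpl17* had a peak (strength 42) with 8 CpG dinucleotides, but that peak lay 2214 bp downstream of the principal start, at another annotated start.

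Because most ribosomal protein genes have CpG-rich promoters, their share with a peak was set against other protein-coding genes of like CpG content. Other genes weighted to the same CpG classes had a *Hells* cKO peak in 67.7% of cases, which corresponds to 54.9 of 81 genes, and this value lay just above the lower end of the interval around the observed 77.8%. Among genes with 30 or more CpG dinucleotides, 53 of 66 ribosomal protein genes (80.3%) and 7198 of 9888 others (72.8%) had a peak. By class, a peak was found at 1 of 2 ribosomal protein genes with 0-9 CpG dinucleotides (others 7.29%) and at 2 of 2 with 10-19 (others 31.5%). It was found at 7 of 11 ribosomal protein genes with 20-29 CpG dinucleotides (others 55.7%), at 17 of 19 with 30-39 (others 69.2%), at 28 of 36 with 40-49 (others 73.8%) and at 8 of 11 with 50 or more (others 75%). CpG content showed little relation to strength within the family. Spearman's rho over the 63 genes was 0.05, against 0.23 over the 9925 protein-coding genes with a peak. Both coefficients are across genes of 1 list and are given as descriptions.

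**Figure D2:**
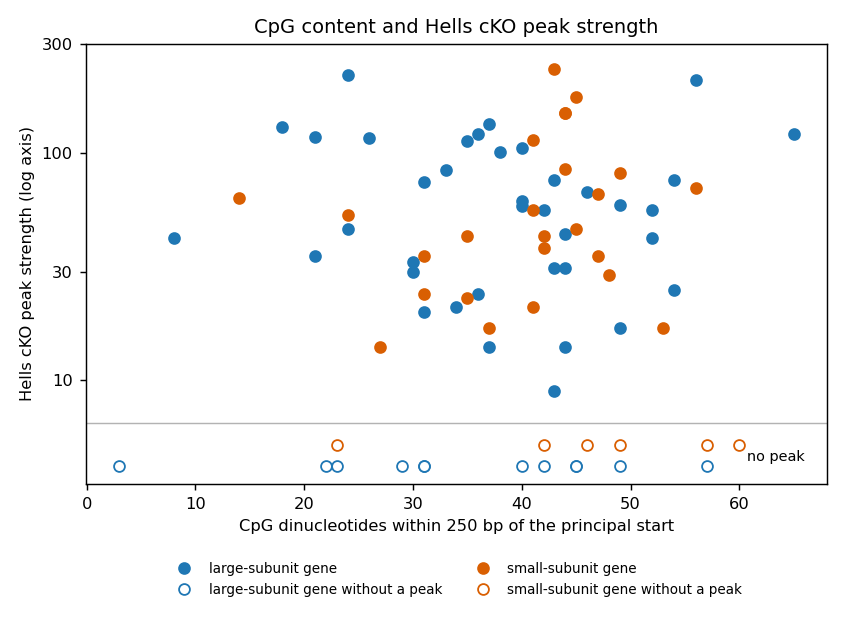
Strength of the Hells cKO peak (vertical log axis, authors' score) against CpG dinucleotides counted 250 bp to either side of the principal start (horizontal axis) for the 81 ribosomal protein genes. Filled points are genes with a peak, large subunit in blue and small subunit in orange, and open points under the line are the 18 genes without a peak. Genes without a peak spread over nearly the whole CpG range (3 to 60), and the points show no trend (rho 0.05).

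Other features of the promoters were compared in the same way. A run of 8 or more C and T bases at the principal start was found in 46.9% of the 81 genes and in 13.8% of all protein-coding genes. This run was present in 49.2% of the genes with a peak and 38.9% of those without. Runs at other annotated starts were not counted, so these shares do not tell which genes have a TOP tract. Motifs were searched on both strands from 250 bases before to 50 bases from the principal start. The ETS-type motif CCGGAAG was found in 28 of 81 ribosomal protein genes (34.6%, against 11.8% of all protein-coding genes), in 30.2% of those with a peak and 50% of those without. The YY1-type motif AAGATGGC, whose first letters can be shared with the last of the ETS-type motif, occurred in 8.64% against 3.36%. The TATAAA sequence occurred in 9.88% against 12.3%, and CCAAT in 30.9% against 38.6%. In ribosomal protein genes with and without a peak, the YY1-type motif occurred in 7.94% and 11.1%, TATAAA in 12.7% and 0% and CCAAT in 33.3% and 22.2%. Among all protein-coding genes with a peak, the C/T run was found in 12.5%, the ETS-type motif in 19.4% and the YY1-type motif in 5.64%. TATAAA was found in 6.77% of them and CCAAT in 39.6%. A match of letters is not evidence of binding.

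The position of the peaks at ribosomal protein genes was close to that at other promoters. The center was downstream of the principal start in 71.4% of the 63 genes and in 72.6% of all protein-coding genes with a peak, at a median of 177 bp and 171 bp. It lay in an exon of the gene in 42 cases, in an intron in 13, in another gene in 4 (*Rps13*, *Rpl36al*, *Rpl13a* and *Rpl4*) and between genes in 4, among them *Rpl7*, *Rps16* and *Rps21*. The center was within 100 bp of the nearest annotated start in 49.2% of ribosomal protein genes and 37.0% of all protein-coding genes with a peak, with a median of 6 annotated starts per gene in the former and 5 in the latter. Median peak width was 2094 bp and 2118 bp. Stronger peaks were wider in both, with rho 0.55 over the 63 genes and 0.50 over all.

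**Figure D3:**
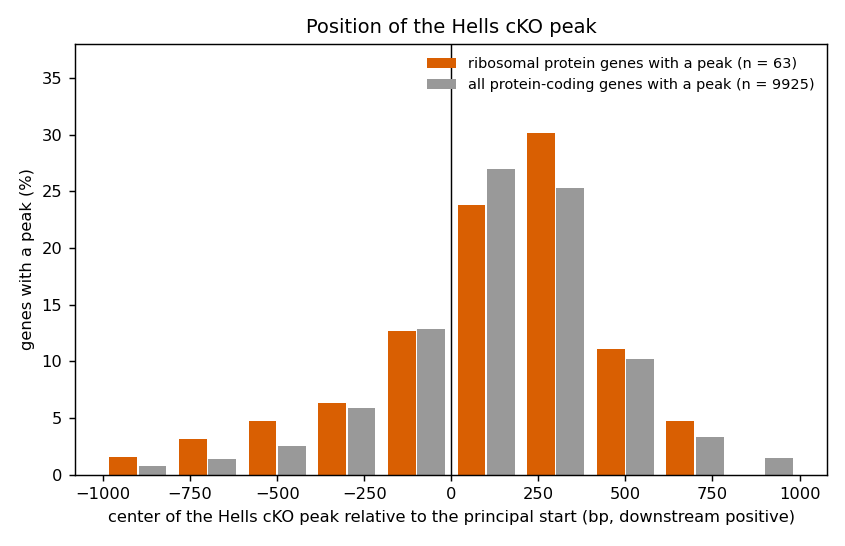
Position of the Hells cKO peak center relative to the principal start (horizontal axis, bp in the direction of transcription, bins of 200 bp) as the percentage of genes with a peak (vertical axis), for 63 ribosomal protein genes (orange) and 9925 protein-coding genes (gray, the ribosomal protein genes included). Centers farther than 1 kb from the principal start, at other starts, are not drawn (1.59% and 9.32%). Both distributions are highest downstream of the start, with 30.2% of ribosomal protein genes between 200 and 400 bp.

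Ribosomal protein genes often host small nucleolar RNA (snoRNA) genes, which guide the modification of ribosomal RNA, in their introns. A *Hells* cKO peak was present at 22 of 29 such hosts (75.9%) and at 41 of 52 others (78.8%). A protein-coding gene starting within 1 kb upstream on the opposite strand was found for 13 genes, of which 9 had a peak (median strength 105), against 54 of 68 without such a neighbour (median strength 49.5). With 9 peaks, all called from 1 list, this difference in median has no error and was not tested.

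Many ribosomal protein genes have processed pseudogenes, and only uniquely mapped reads were kept. Of all 50-base windows within 1 kb of the principal start, a median of 95.3% were unique in the genome at ribosomal protein genes (70.4% at *Rps2* to 100%), against 99.9% for mitochondrial ribosomal protein genes and 100% for proteasome subunits. The median was 95.6% for the genes with a *Hells* cKO peak and 93.8% for those without (83.7-100%). *Rps2* itself had a peak of strength 46. The part of mappability in the missing peaks was not tested.

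By chromosome the counts were small. The share over all protein-coding genes of each chromosome is not given here, so the counts do not show a trait of the family. All 5 genes on chromosome 4, all 4 on chromosome 15, all 4 on chromosome 12 and 12 of 14 on chromosome 7 had a *Hells* cKO peak. Chromosome 10 had a peak at 1 of 4 genes (*Rps12*, but not *Rpl41*, *Rps15* or *Rps26*), and chromosomes 9, 11 and 17 each at 4 of 7. The number of other *Hells* cKO peaks within 1 Mb was a median of 20 at genes with a peak and 14.5 at genes without one. It was 17 over all protein-coding genes and likewise 20 over those with a *Hells* cKO peak.

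*Rpsa* and *Rpl14* lay together in a stretch of chromosome 9 without any *Hells* cKO peak center, from 119445217 to 121277537 (GRCm38). The stretch was singled out after its values were seen. It spans 1.83 Mb, the 86th longest of 17097 intervals between neighbouring *Hells* cKO peak centers, whose median was 59430 bp. It contains the principal starts of 19 protein-coding genes, 12 of them with 20 or more CpG dinucleotides, among them *Ctnnb1*, which encodes β-catenin. Of the 19 genes only *Ulk4* had a *Hells* cKO peak within reach, at another of its starts outside the stretch. The *Hells* CTRL list had 7 peaks in the same stretch, with strengths of 23 to 82 and a median of 31. The *Hells* cKO list had 57 intervals with at least as many protein-coding starts.

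The families most like the cytosolic ribosomal proteins in being needed by all cells had similar shares. Mitochondrial ribosomal protein genes had a *Hells* cKO peak in 56 of 78 cases (71.8%, exact 95% interval 60.5-81.4%) and proteasome subunit genes in 32 of 39 (82.1%, exact 95% interval 66.5-92.5%). All 3 intervals overlapped. Other genes weighted to the CpG classes of these families had 66.9% and 64.3%. Median percentiles of the peaks were 61.7 and 64.5, against 72.1 for the cytosolic ribosomal proteins. In *Hells* CTRL testes, 2 mitochondrial ribosomal protein genes and 0 of 39 proteasome genes (exact 95% interval up to 9.03%) had a peak.

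**Figure D4:**
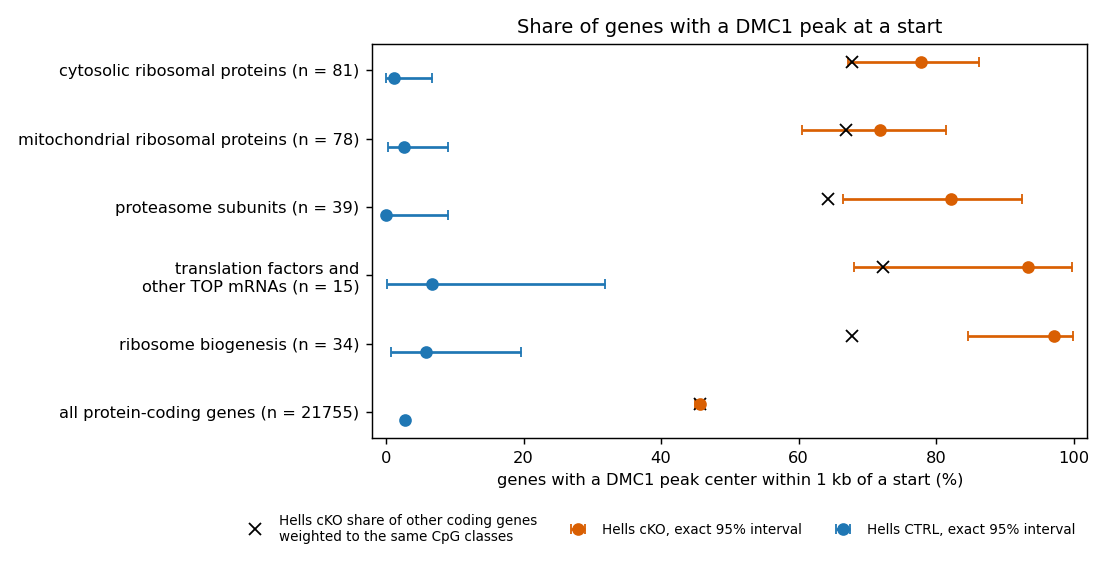
Share of genes with a DMC1 peak center within 1 kb of a start (horizontal axis, %) for each gene list, in Hells cKO (orange) and Hells CTRL (blue), with exact 95% intervals for counting error. Crosses give the Hells cKO share of other protein-coding genes weighted to the same CpG classes. Hells cKO shares are 77.8% for cytosolic ribosomal proteins against a cross at 67.7%, and the interval of this list overlaps those of the 4 other lists, while all Hells CTRL shares are below 7%.

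**Figure D5:**
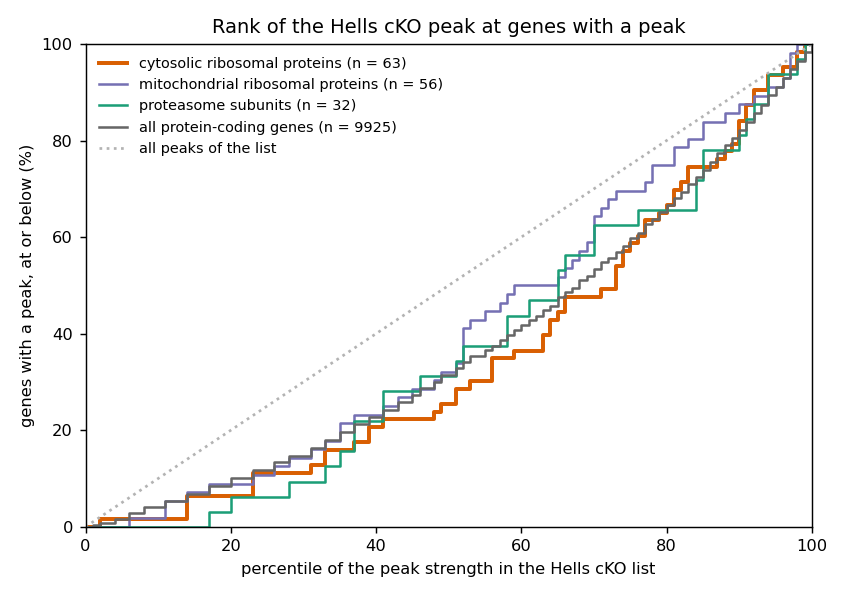
Cumulative share of genes with a Hells cKO peak (vertical axis, %) at or below each percentile of peak strength in the Hells cKO list (horizontal axis), for cytosolic ribosomal proteins (orange, n = 63), mitochondrial ribosomal proteins (purple, n = 56), proteasome subunits (green, n = 32) and all protein-coding genes (gray, n = 9925). All 4 curves lie below the dotted diagonal of the whole list over most of their range, and the curves cross one another.

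Further genes of ribosome production and translation came from 3 lists of known genes. Of 34 ribosome biogenesis genes, 33 had a *Hells* cKO peak (97.1%, exact 95% interval 84.7-99.9%), against 45.6% of all protein-coding genes and 67.7% of other genes weighted to the same CpG classes. The exception was *Lsg1*, a GTPase acting late in large-subunit maturation. Their median strength was 44, and the strongest peaks were at *Rrn3* (153), an initiation factor of RNA polymerase I, *Ltv1* (152), a small-subunit assembly factor, and *Wdr12* (149), a large-subunit processing factor. Peaks at *Fbl* (29), the ribosomal RNA methyltransferase fibrillarin, and *Ncl* (23), which encodes nucleolin, were weaker. *Dkc1* and *Nop10*, which encode pseudouridine synthase components, also had *Hells* CTRL peaks, of strength 26 and 172.

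Among 15 translation factors and other genes with TOP mRNAs, 14 had a *Hells* cKO peak (93.3%, exact 95% interval 68.1-99.8%), against 45.6% of all protein-coding genes and 72.3% of other genes weighted to the same CpG classes. Their median strength was 86. The strongest were at *Eif3h* (200) and *Eif3e* (185), subunits of an initiation factor, and the weakest at *Hnrnpa1* (9). *Eef1d*, a subunit of the elongation factor exchange complex, had none, and *Npm1*, which encodes nucleophosmin, had a *Hells* CTRL peak of strength 39. Of 5 ribosomal protein genes whose symbols lie outside the family rule, 3 had a *Hells* cKO peak (60.0%, against 70.9% of other genes weighted to the same CpG classes). These were *Rpl22l1* (170), *Rps3a1* (117) and *Rpl7l1* (65), whereas *Fau*, which encodes a fusion with a ubiquitin-like protein, had none.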

How the data were processed

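DMC1 ChIP-SSDS libraries from whole testis (4 libraries, 2 per genotype) were used. The 5hMeDIP libraries of the series were not used here. According to the methods, the authors trimmed reads to 50 bp, kept reads with Phred scores above 28, mapped them to GRCm38/mm10, kept non-duplicated, uniquely mapped reads, merged replicates, called peaks with MACS 2.0.10 and selected them by irreproducible discovery rate. The deposited strength is a score: per the methods, fragments over local background, then per library size. All deposited scores are whole numbers, so this last step may be absent or scaled.

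Peak centers (interval midpoints) were matched to GENCODE M21 starts within 1 kb. Percentiles are mid-ranks within a list. CpG dinucleotides, C/T runs (15 bases before to 20 after the start), motifs and unique 50-base windows were read from GRCm38.p6. The principal start is the coding-transcript start with most transcripts of the gene within 50 bp. Genes were placed in 6 classes of CpG content. The tools were numba 0.67.0, scipy 1.17.1, pandas 2.3.3, matplotlib 3.10.9, numpy 2.4.6 and Python 3.11.15, and peak matching was tested on simulated data. Genes named with values were the 10 strongest and 5 weakest (with ties), those with a *Hells* CTRL peak, those without a *Hells* cKO peak, X-linked genes and their copies, the stalk genes with *Rpsa*, 4 anemia genes and those next to the distance limit. A symbol of the rule that is annotated as a pseudogene, *Rps4l*, was not counted. Some genes that the rule names are counted in the totals but are not reported by name here. Further genes are named where a count or feature singled them out after their values were seen. The genes, lists and alternatives were chosen with earlier results of these data known. Alternatives changed the distance limit, the use of centers, the starts, the symbols, the peak threshold, the chromosomes and the ranking.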

Additional observations from a re-analysis of the deposited data

How the results depend on the processing

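The number of ribosomal protein genes with a *Hells* cKO peak (63 of 81) was 59 with a limit of 500 bp and 65 with 2 kb, 65 when any base of the peak counted, 63 with starts of protein-coding transcripts, 66 of 84 with a wider symbol rule, 47 with peaks at or above the median strength and 59 of 77 on autosomes. It was 61 when peaks nearer to another protein-coding gene were left out, an alternative chosen after seeing the data. With peaks at or above the median strength, 6811 of 21755 protein-coding genes had a peak. For the other alternatives the share over all protein-coding genes is not given here. They therefore do not show how the contrast with all genes changes. The number with a *Hells* CTRL peak rests on *Rpl39*, whose peak center is close to the limit: it was 1, and became 0 with a limit of 500 bp, with starts of protein-coding transcripts, or on autosomes, and 2 with a limit of 2 kb or any base of the peak. The median percentile of 72.1 ranged from 70.5 to 76.9 under the other alternatives, but was 58.4 when peaks were ranked among those within 1 kb of protein-coding starts. In the whole list, the protein-coding genes with a peak had a median percentile of 67.1, against 72.1 for the family. The value of 58.4 is on another scale and is not to be set against 67.1. The count of peaks at or above percentile 90 was 10, with 8 at 500 bp and 11 with the wider symbol rule. No paired analysis was possible because the replicates were merged into 1 list per genotype. For the same reason no replicate could be left out. Unknown depth limits what the absence of a peak shows.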
